A study of Rattus norvegicus with 9 samples.

Results

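White fat cells store triglyceride in a large droplet and secrete hormones, while brown fat cells burn fat for heat through Ucp1, the uncoupling protein of their mitochondria. In rodents the fat around the kidney holds white and brown fat cells. The 10 genes described here are Adipoq, Retn, Lep and Cfd, whose products fat cells secrete, Fabp4 and Lpl, which handle fatty acids, Plin1 and Cidec, which coat or enlarge the lipid droplet, and Cidea and Ucp1, which in fat are known for the brown type. They were selected on these data, because fat genes had been seen to be high on the arrays of MSC replicates 3 and 4, and their probes were those that carry the gene's name in the array files. The 10 genes had 11 probes among the 30367 gene probes (26115 gene names) of the array, with 9 genes on 1 probe and Cidea on 2. Because the pattern on MSC replicates 3 and 4 chose these genes, their values there and their differences between the groups are a description, with no test.

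The arrays came from a rat model of kidney donation after circulatory death (DCD). Each of the 9 arrays measured the RNA of kidney tissue after 20 min. of warm ischaemia, in 5 kidneys that were not perfused (NP) and in 4 that were then perfused for 4 hrs at 4°C with Belzer solution (BS) holding 3000000 mesenchymal stromal cells (MSC). The MSC had been grown from the bone marrow of rats that carry EGFP. The groups differ in the perfusion as well as in the MSC, and these cannot be told apart. The treatment field of the labels calls the NP kidneys not perfused, as the study's methods do, while their titles name 4 hrs of perfusion with BS. The age of the rats is not given in the sources used here. The kidneys were removed with the hilum preserved, and how much of the surrounding fat went into each RNA sample is not stated in the sources used here. Another MSC array, which the authors discarded for poor quality, was not analysed here.

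NP replicates 1, 2 and 3 and MSC replicates 1 and 2 lay on slide 1, and NP replicates 4 and 5 and MSC replicates 3 and 4 on slide 2. On each array 65.6% to 74.3% of the gene spots were well above background by the scanner software. The ends of this range were MSC replicate 4 (65.6%, with the lowest median raw intensity, 576.6, and the most spots marked as outliers, 593) and MSC replicate 3 (74.3%, with the highest intensity, 917.1, and the fewest such spots, 273). The part of these differences between the arrays in the fat gene values was not tested. A probe was taken as above background on an array where most of its spots were. The kidney markers Umod, Slc12a1, Slc34a1, Lrp2, Aqp2, Slc12a3 and Nphs1 were above background on all 9 arrays with all 10 of their probes, so that the labelled tissue was borne out. Values are log2 normalized intensities with no background subtracted, which holds dim probes near 8 and makes their differences too small. Levels of different probes cannot be set against each other, since each probe binds with its own strength. The height of a probe on an array is its log2 intensity minus the median of its 5 NP arrays.

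The probes that lie in coding sequence are shown for the genes on which the account turns, in lower case and 5′ to 3′, with their positions on rn4 as the array files give them. Ucp1 is the brown gene with the widest range, the Cidea, Cidec and Fabp4 probes each join exons that lie apart on the chromosome, and the Lep probe, which ends just past the stop codon, gave no signal above background.
Ucp1 (chr19:26527687-26527746, minus strand): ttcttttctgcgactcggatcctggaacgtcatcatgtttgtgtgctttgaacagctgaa
Cidea A_43_P22556 (chr18:63888076-63895390, plus strand): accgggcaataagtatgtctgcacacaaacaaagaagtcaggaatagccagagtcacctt
Cidec (chr4:149309002-149314127, minus strand): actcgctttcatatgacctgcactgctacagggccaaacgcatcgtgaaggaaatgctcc
Fabp4 (chr2:93536175-93538589, plus strand): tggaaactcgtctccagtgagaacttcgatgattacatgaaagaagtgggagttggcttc
Lep (chr4:55945879-55945938, plus strand): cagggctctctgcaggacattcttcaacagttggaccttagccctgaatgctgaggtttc
The 60 bases of the Cidea probe spanned 7315 bases of the genome, those of Cidec 5126 and those of Fabp4 2415. Introns therefore lie between the joined parts, and spliced RNA matches these probes over their whole length.

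Ucp1 and Retn stood for brown and for white fat in the comparison of the types, so the 250 bases before the start of each gene are shown, from RefSeq on GRCr8. Capitals mark the letters TATAAA.
Ucp1 (chr19:41721422-41721671, minus strand): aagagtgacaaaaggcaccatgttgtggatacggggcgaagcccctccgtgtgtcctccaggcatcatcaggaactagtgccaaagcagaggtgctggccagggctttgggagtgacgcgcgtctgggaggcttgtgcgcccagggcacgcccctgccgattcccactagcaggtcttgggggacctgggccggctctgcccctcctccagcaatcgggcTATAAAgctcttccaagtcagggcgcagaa
Retn (chr12:6508524-6508773, plus strand): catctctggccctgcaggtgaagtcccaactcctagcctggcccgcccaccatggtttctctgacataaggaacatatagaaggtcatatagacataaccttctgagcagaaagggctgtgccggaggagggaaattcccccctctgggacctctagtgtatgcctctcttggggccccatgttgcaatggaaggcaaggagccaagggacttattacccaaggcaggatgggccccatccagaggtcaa
Among the 8 members with a listed promoter, TATAAA was found on either strand in 1, Ucp1, against 12.9% of all 33469 promoters. The letters TTGCNNAA, a core of the sites that C/EBP factors bind, were found in 3 of the 8 (Cidec, Lep and Plin1) against 9.22%. These matches describe the letters in the window only.

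Ucp1 was high on MSC replicates 3 and 4, but it was not high on these arrays alone. Its log2 intensity was 9.91, 8.91, 11.07, 8.22 and 8.14 on NP replicates 1 to 5, and 7.99, 8.48, 14.35 and 12.92 on MSC replicates 1 to 4. The 2 bright MSC arrays stood 5.44 and 4.01 above the NP median, which is 43.3-fold and 16.1-fold, and on the scanner's background-subtracted signal 156-fold and 64.8-fold. NP replicate 3 was the next highest and stood 3.28 below MSC replicate 3. MSC replicate 1 was the lowest array of all and MSC replicate 2 lay among the lower NP arrays, and on MSC replicate 2 only 1 of 9 usable spots of Ucp1 was well above background. Ucp1 has 10 spots on each array, and the SD between them was 0.04 to 0.13, so that the differences between arrays were far larger than those between spots of 1 array. The group means were 9.25 ± 1.24 (SD, n = 5) in NP and 10.93 ± 3.18 (SD, n = 4) in MSC, and the groups overlapped. MSC minus NP was -1.73 on slide 1 and 5.45 on slide 2.

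**Figure D1:**
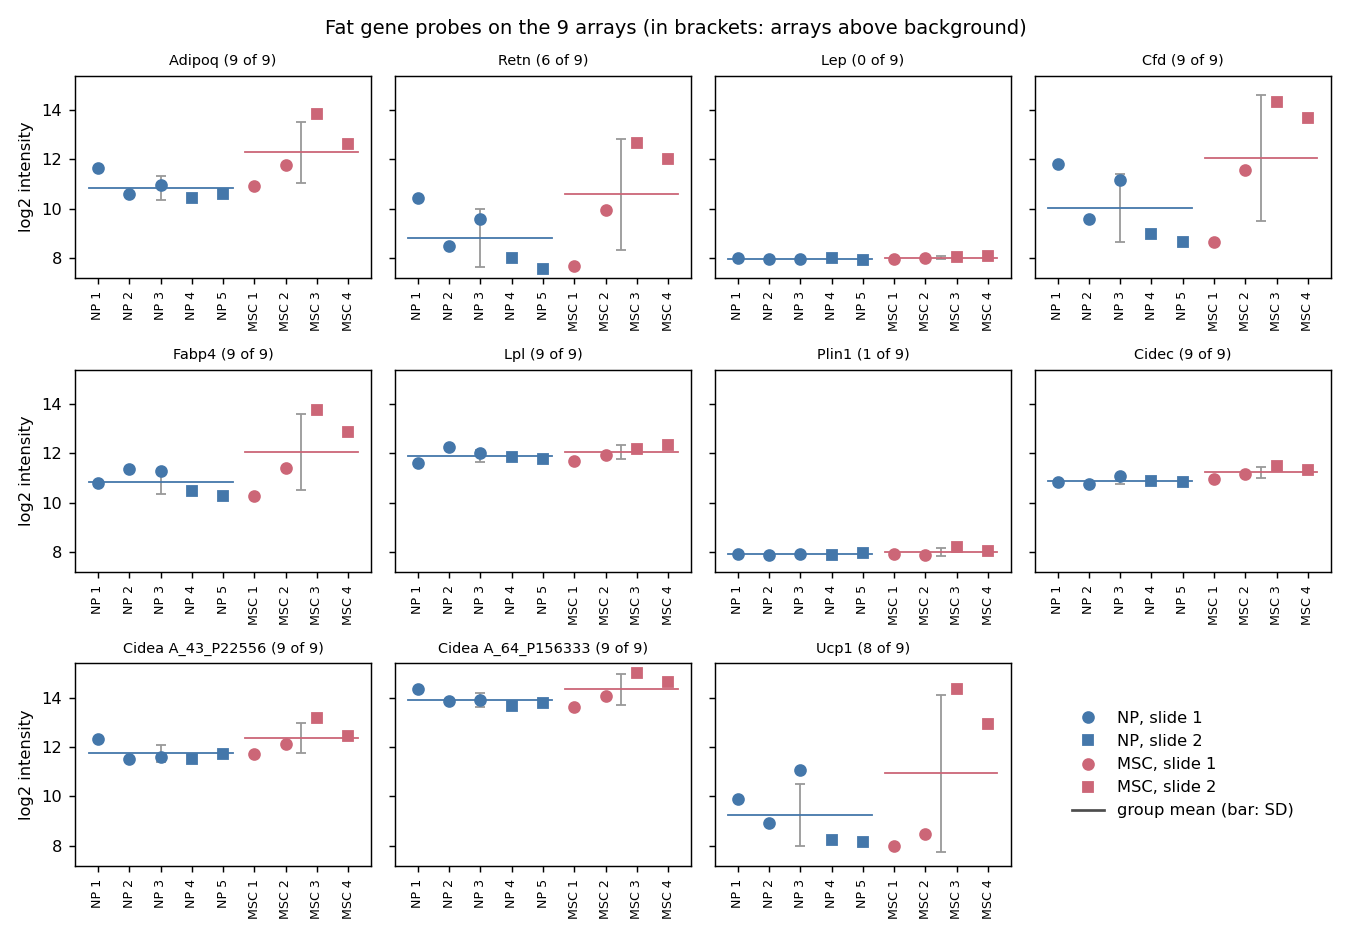
Log2 normalized intensity (vertical axis) of the 11 probes of the 10 fat genes on each NP (blue) and MSC (red) array, with circles for slide 1 and squares for slide 2. Lines are group means, grey bars are SD (n = 5 NP, n = 4 MSC), and the number in brackets counts the arrays above background. MSC replicates 3 and 4 are the highest points for Ucp1, Cfd, Retn, Adipoq and Fabp4, while Lep and Plin1 stay near 8.

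The secreted products moved furthest with Cfd and Retn. Cfd encodes complement factor D, also called adipsin, a protease that fat cells release into the blood. It gave 11.81, 9.59, 11.16, 9.0 and 8.67 on NP replicates 1 to 5 and 8.66, 11.59, 14.34 and 13.67 on MSC replicates 1 to 4. Retn encodes resistin, a hormone of white fat in rodents. It gave 10.46, 8.49, 9.59, 8.01 and 7.56 on the NP arrays and 7.70, 9.96, 12.65 and 12.03 on the MSC arrays, and was above background on 6 of 9 (not on NP replicates 2 and 5 or MSC replicate 1). For both genes MSC replicates 3 and 4 were the highest arrays, followed by NP replicate 1, MSC replicate 2 and NP replicate 3. The heights on MSC replicates 3 and 4 were 4.75 and 4.08 for Cfd (27.0-fold and 16.9-fold, and 56.7-fold and 40.1-fold on the scanner's background-subtracted signal) and at least 4.16 and 3.54 for Retn, whose NP median was not above background. The 2 dimmest Cfd arrays, NP replicate 5 and MSC replicate 1, differed by less than the spread of either group, and the MSC range covered the whole NP range.

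Adipoq encodes adiponectin, a hormone made almost only by fat cells. It was above background on every array, with 11.67, 10.61, 10.98, 10.44 and 10.61 on NP replicates 1 to 5 and 10.92, 11.78, 13.83 and 12.63 on MSC replicates 1 to 4. The heights on MSC replicates 3 and 4 were 3.22 and 2.02 (9.32-fold and 4.05-fold), and the next array was MSC replicate 2, which lay 0.85 below MSC replicate 4. Lep encodes leptin, the hormone through which white fat reports its stores. It was not above background on any of the 9 arrays, where its values ran from 7.92 to 8.09, and no fold can be given. Leptin RNA was therefore not detectable on the arrays where Adipoq, Cfd and Retn were brightest.

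The genes of fatty acid handling split. Fabp4, the fatty acid binding protein of fat cells, which capillary endothelium also makes, gave 10.79, 11.36, 11.29, 10.46 and 10.26 on NP replicates 1 to 5 and 10.27, 11.40, 13.73 and 12.85 on MSC replicates 1 to 4. Its heights on MSC replicates 3 and 4 were 2.93 and 2.06 (7.65-fold and 4.16-fold). Lpl, the lipase that frees fatty acids from lipoproteins in fat, muscle and other tissues, gave 11.61, 12.24, 11.99, 11.86 and 11.75 on the NP arrays and 11.69, 11.94, 12.18 and 12.35 on the MSC arrays. Lpl was the single member probe for which MSC replicates 3 and 4 were not both above the other 7 arrays, because NP replicate 2 lay 0.06 above MSC replicate 3. Its 10 spots had an SD of 0.06 to 0.16 on an array, so that this gap was within the spread of the spots.

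The droplet genes differed. Cidec, which makes droplets fuse and grow, gave 10.82, 10.76, 11.07, 10.86 and 10.84 on NP replicates 1 to 5 and 10.95, 11.16, 11.49 and 11.33 on MSC replicates 1 to 4, with heights of 0.65 and 0.48 on the last 2 arrays. Plin1, the coat protein that guards the droplet of fat cells, was above background on 1 of 9 arrays, MSC replicate 3, where it gave 8.22 against 7.88 to 8.04 elsewhere. No fold is given for it. Cidea, a droplet protein that is abundant in brown fat, was bright on all 9 arrays with both probes. A_43_P22556 gave 12.33, 11.52, 11.60, 11.53 and 11.73 on the NP arrays and 11.73, 12.12, 13.18 and 12.44 on the MSC arrays. A_64_P156333 gave 14.36, 13.86, 13.90, 13.65 and 13.77 on the NP arrays and 13.61, 14.07, 15.01 and 14.63 on the MSC arrays. Both probes put NP replicate 1 next after MSC replicates 3 and 4, and the heights on MSC replicates 3 and 4 were 1.58 and 0.84 for A_43_P22556 and 1.15 and 0.76 for A_64_P156333.

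The same order of the bright arrays held for most members. MSC replicate 3 exceeded MSC replicate 4 for 9 of the 11 probes, by 1.43 for Ucp1, 1.20 for Adipoq, 0.88 for Fabp4, 0.67 for Cfd and 0.62 for Retn. The exceptions were Lpl and Lep. In bulk RNA, more fat cells in a sample and more RNA of these genes per cell cannot be told apart.

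Over all probes of the array, 3.41% had MSC replicates 3 and 4 both above the other 7 arrays, and 10 of the 11 member probes did. Among these 10, Lep was above background on no array and Plin1 on 1, so that their rank carries no information. Only 0.0296% (9 probes) had both of these arrays at least 1 log2 unit above the others. They were Cfd (by 1.86), Ucp1 (1.85), Cox8b (1.73), Grifin (1.70), Retn (1.57), Thrsp (1.49), Fabp4 (1.45), Fam57b (1.14) and Gys2 (1.03), so that 4 were members, and Adipoq fell short at 0.85. By the range over the 9 arrays, the 5 widest of all probes were Scd1 at 7.19, Ucp1 at 6.36, Cfd at 5.68, Thrsp at 5.66 and Retn at 5.09, each with its highest value on MSC replicate 3. Since the members were chosen by this pattern, these counts are a description.

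For MSC against NP as a whole, limma called 0% of 30364 probes at an FDR under 0.05 with a fold over 1.5, and so 0 of the 11 members. The study, which filtered probes and collapsed those of the same gene, called Tmem52b and Calb1 higher in MSC at these thresholds. All probes were kept here, so the sets differ. The differences were 2.02 for Cfd, 1.77 for Retn, 1.68 for Ucp1, 1.43 for Adipoq, 1.23 for Fabp4, 0.62 and 0.42 for the Cidea probes, 0.36 for Cidec and 0.15 for Lpl. At an unadjusted p under 0.05, 2 of the 11 were higher in MSC against 4.74% of all probes and 0 were lower against 4.03%, and nothing is read from these counts. The median of the member differences was 0.62, and that of all probes -0.0017. Without MSC replicates 3 and 4, the difference of Ucp1 turned to -1.02, that of Cfd became 0.08, that of Retn 0.01 and that of Adipoq 0.49. On slide 1 the difference was -0.73 for Cfd, -0.68 for Retn and -0.31 for Fabp4, and on slide 2 it was 5.17, 4.56 and 2.93.

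Brown and white genes were set side by side through their heights. Retn was taken as the white gene because Lep was not above background, and this pair was chosen after the values were seen. On MSC replicate 3 the heights were 5.44 for Ucp1 and at least 4.16 for Retn, and on MSC replicate 4 they were 4.01 and at least 3.54, so that both genes were raised on these arrays. Since Lep was not above background on any array, whether it followed Retn cannot be read. The mean of the list of further white genes stayed within its NP range, as described below, while Nnmt in that list was raised on both arrays. MSC replicate 2 differed, with Retn at 1.47, Cfd at 2.00 and Adipoq at 1.17 while Ucp1 stood at -0.43, and Ucp1 minus Retn was -1.90. Since Ucp1 on MSC replicate 2 and Retn on NP replicate 2, which is its NP median, were not above background, these heights are bounds, at most -0.43 for Ucp1, at least 1.47 for Retn and at most -1.90 for the difference. NP replicates 1 and 3, on which both probes were above background, were ordered differently by the genes. Ucp1 was higher on NP replicate 3 (11.07 against 9.91) and Retn on NP replicate 1 (10.46 against 9.59). Cidea, the other brown member, did not follow Ucp1 on these arrays. The mean of its probes had a height of 0.59 on NP replicate 1, 0.01 on NP replicate 3 and 0.35 on MSC replicate 2. The gap on MSC replicate 2 is thus one of Ucp1 and not of both brown members.

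The size of these gaps depends on how background is treated. On the scanner's processed signal, from which background is subtracted, Ucp1 minus Retn was -5.60 on MSC replicate 2 and -2.44 on NP replicate 1, both again below 0, the value for MSC replicate 2 with Ucp1 still at background. On MSC replicates 3 and 4 it was 0.02 and -0.85, and on NP replicate 3 it was 0.07, so that no excess of Ucp1 over Retn is read on these arrays. Ucp1 itself then stood 7.29 and 6.02 above its NP median on MSC replicates 3 and 4, and -1.25 from it on MSC replicate 2. Each array is 1 kidney, so these gaps between arrays have no replicate and were not tested.

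**Figure D2:**
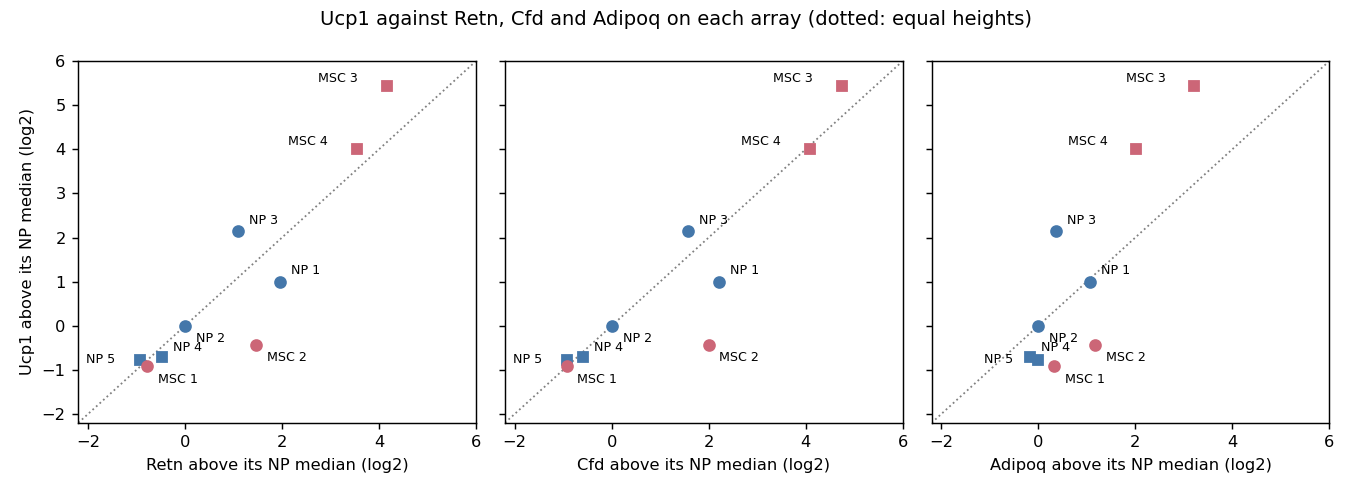
Height of Ucp1 over its NP median (vertical axis, log2) against the heights of Retn, Cfd and Adipoq (horizontal axes, log2), with a point for each NP (blue) and MSC (red) array, circles for slide 1 and squares for slide 2. MSC replicate 2 lies below the dotted line of equal heights in each panel, at -0.43 for Ucp1. The NP median of Retn was not above background, so where Retn stands above it the height is at least the value drawn.

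The choice of the genes used how MSC replicates 3 and 4 stood against the other 7 arrays and not the order of these 7 among themselves, which allows a test of co-variation. Over these 7, each member above background on at least 6 of the 9 arrays was correlated with Adipoq (8 relations, exact permutation tests over 5040 orders, two-sided, Benjamini-Hochberg adjusted over the 8). Pearson's r was 0.91 for Cidea A_43_P22556, 0.81 for A_64_P156333 and 0.84 for Cfd (exact permutation adjusted p = 0.048 for each, and the same when adjusted over the 6 probes above background on all 7 arrays, chosen after seeing the data). Spearman's rho for these 3 probes was 0.64, 0.75 and 0.71 (exact permutation adjusted p = 0.267, 0.235 and 0.235). On the processed signal r was 0.75 for A_64_P156333 and 0.83 for Cfd (exact permutation adjusted p = 0.106 for each). Retn had an r of 0.84 and a rho of 0.79, but it was above background on 4 of the 7 arrays, and nothing is read from its r. It came among the 8 only because the filter also counted MSC replicates 3 and 4, which chose the genes. The adjusted p over the 8 rest in part on Retn, and the 6 probes were chosen after seeing the data. No pass is therefore read from either set. Ucp1, above background on 6 of the 7, had an r of 0.29 and a rho of 0.46 (exact permutation adjusted p = 0.563 and 0.403). Fabp4 had 0.41, Cidec 0.52 and Lpl -0.29, with rho of 0.61, 0.43 and -0.07 (exact permutation adjusted p of 0.267 to 0.906 over both measures).

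These relations rested on NP replicate 1 and MSC replicate 2, the 2 arrays farthest from the median of Adipoq. Without them r was 0.45 and 0.20 for the Cidea probes and 0.50 for Cfd, below the 0.55 of Ucp1 and the 0.80 of Cidec, so that the order of the members by r did not hold. Within slide 1, which held 5 of the 7 arrays, r was 0.94 and 0.74 for the Cidea probes and 0.77 for Cfd. It was 0.44 for Cidec, 0.06 for Fabp4, 0.00 for Ucp1 and -0.54 for Lpl. Over so few arrays no pass is read from these values. Slide 2 held the other 2, too few for a value.

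The genes with the profile most like the mean of the members, by Pearson's r over the 9 arrays among probes with a range of at least 2 log2 units, were Car3 (0.98), Grifin (0.98), Thrsp (0.98), Scd1 (0.97), Cox8b (0.95), Fam57b (0.94), Nnat (0.93), Slc36a2 (0.92), Aoc3 (0.92) and Gys2 (0.91). All points of these correlations share MSC replicates 3 and 4 as extremes, and the values are a description. Most like Adipoq were Nnat, Scd1 and Car3 (each 0.98), followed by Thrsp, S100b, Grifin and Aoc3 (each 0.96), Gys2 (0.95), Col5a3 (0.93) and Fam57b (0.93). Most like Ucp1 were Cox8b (0.97), Grifin (0.96), Thrsp and Sprr1a (each 0.93), Fam57b, Slc36a2 and Car3 (each 0.92), and Fasn and Rprml (each 0.90), which are 9 of its 10 genes. Of the 10 genes in each of these lists, 4 were in both (Car3, Thrsp, Grifin and Fam57b).

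Other genes of fat moved in part. In the lists of further brown, white and common fat genes there were 73 probes of 66 genes, of which limma called 0 between MSC and NP. At an unadjusted p under 0.05, 3 were higher in MSC (4.11%) and 2 lower (2.74%), near the shares of all probes given above, and their median difference was 0.05. The 3 were Agpat2, an enzyme of triglyceride synthesis (by 0.66, FDR = 0.323 by limma), Aoc3, an amine oxidase of fat cells and vessels (1.14, FDR = 0.495), and Fabp3 (0.39, FDR = 0.524). The 2 lower were Klf15 (-0.37, FDR = 0.512 by limma) and Bscl2 (-0.15, FDR = 0.497). MSC replicates 3 and 4 were both above the other 7 arrays for 16 of the 73 (21.9%) against 3.41% of all probes, with a lead under 0.01 for 1 of them and of at least 1 log2 unit for Cox8b and Thrsp. Of these, 3 were above background on 1 array only (Gpihbp1, Dio2 and a Cpt1b probe), and their rank carries no information.

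Among the brown genes, Cox8b, a cytochrome oxidase subunit of brown fat and muscle, gave 9.47, 9.78, 10.05, 9.31 and 9.07 on NP replicates 1 to 5 and 9.06, 9.33, 12.35 and 11.78 on MSC replicates 1 to 4. Like Ucp1 it was low on MSC replicate 2 and highest among the NP arrays on replicate 3. Slc36a2, an amino acid transporter used as a marker of brown fat, was above background on 2 of 9 arrays, MSC replicates 3 and 4, at 9.87 and 8.79. Cpt1b, which admits fatty acids into mitochondria, and the potassium channel gene Kcnk3 had mean heights of 0.91 and 0.69 on these arrays, but NP replicate 1 was the highest array for Cpt1b, at 13.16. Of the 16 probes of this list 6 were above background on no array, and 5 had MSC replicates 3 and 4 above all others (3.41% of all probes did). Besides Cox8b and Slc36a2 these were Dio2 and the dim Cpt1b probe, each above background on 1 array only, and Fabp3, by 0.01.

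Among the white genes, the list mean gave heights of 0.37 on MSC replicate 3 and 0.11 on MSC replicate 4, within -0.20 to 0.37 on the NP arrays. The leading genes were Nnmt, an enzyme that methylates nicotinamide, with 10.01 and 9.12 on MSC replicates 3 and 4 against an NP median of 8.62, and Sncg with a mean height of 0.75. For Sncg, NP replicate 4 at 10.06 and MSC replicate 2 at 10.24 exceeded MSC replicate 4 at 10.05. Of this list 1 of 7 probes had MSC replicates 3 and 4 above all others.

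In lipid synthesis 3 genes had large heights and the rest of the list did not. Scd1, the desaturase that makes oleic acid, gave 10.98, 9.19, 9.95, 8.66 and 8.21 on NP replicates 1 to 5 and 8.39, 11.44, 15.40 and 12.37 on MSC replicates 1 to 4. Thrsp, a regulator of fatty acid synthesis, gave 9.90, 9.27, 10.22, 8.56 and 8.50 on the NP arrays and 8.56, 10.51, 14.17 and 12.00 on the MSC arrays. Both were also raised on MSC replicate 2, as Cfd and Retn were. Fasn, the fatty acid synthase, gave 12.29 to 12.70 on the NP arrays, 12.48 and 12.33 on MSC replicates 1 and 2, and 15.32 and 13.56 on MSC replicates 3 and 4. The other 10 probes of the list had mean heights of -0.23 to 0.34 on MSC replicates 3 and 4. Among them were Acaca, which makes the substrate of Fasn, at 0.28, and Elovl6 and Me1, both below 0 with both of their probes. The Acaca probe was above background on 5 of 9 arrays, so that little is read from its height.

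In the other lists, Adrb3, the receptor through which noradrenaline starts lipolysis in fat cells, was above background on 3 of 9 arrays. It gave 7.88 to 8.21 on the NP arrays, 7.92 and 8.31 on MSC replicates 1 and 2, and 10.71 and 8.97 on MSC replicates 3 and 4. Pparg, the regulator that drives fat cell differentiation, gave 9.89 to 10.57 on the NP arrays, 9.72 and 9.90 on MSC replicates 1 and 2, and 11.70 and 10.80 on MSC replicates 3 and 4. Gpihbp1, which holds Lpl at the capillary wall, was above background on 1 array, MSC replicate 3, at 9.72. By list mean, lipolysis stood at 0.59 and 0.12 on MSC replicates 3 and 4, lipid storage at 0.42 and 0.15, and the regulators at 0.36 and 0.21, against at most 0.08, 0.07 and 0.14 in NP. The list of other adipocyte genes stood at 0.25 and 0.01 against at most 0.14 in NP, so that it was within the NP range on MSC replicate 4. The lipolysis genes Abhd5 and Mgll were flat, with mean heights of 0.07 and 0.05 on MSC replicates 3 and 4.

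**Figure D3:**
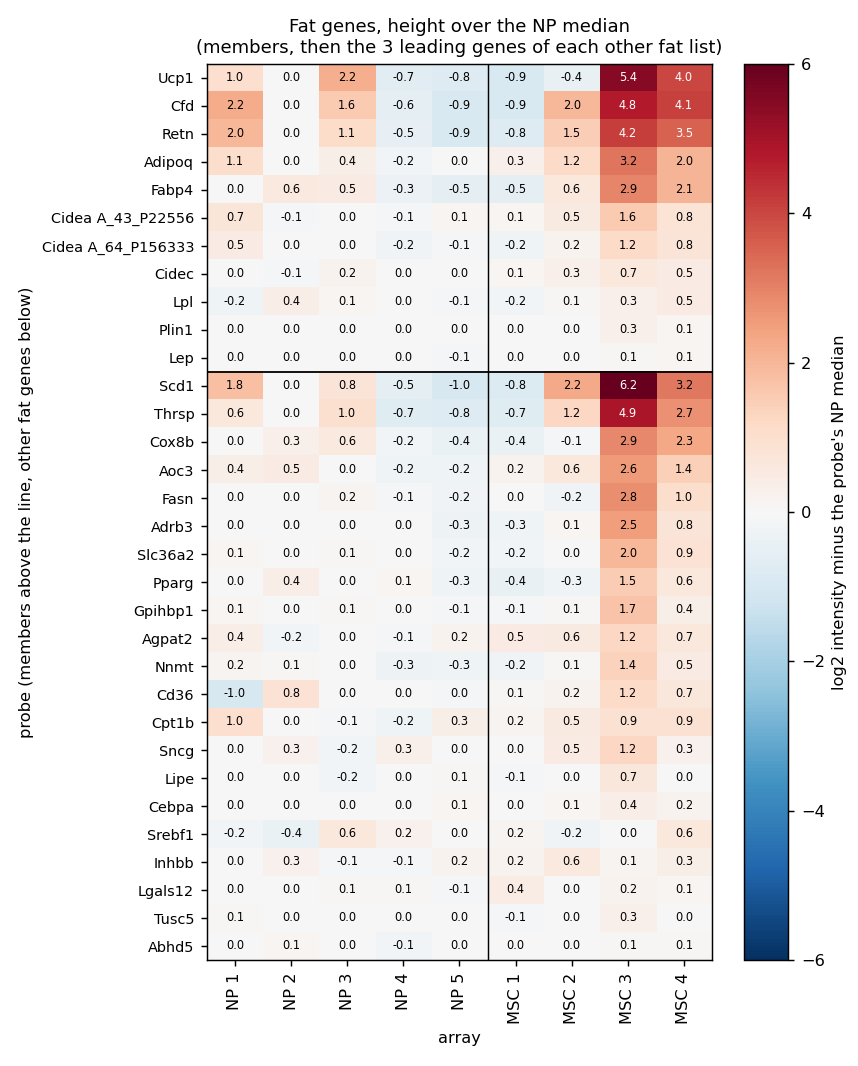
Height of each probe over its own NP median (colour and printed value, log2) on the 9 arrays, for the 11 member probes above the line and the 3 genes of each other fat list with the largest mean height on MSC replicates 3 and 4 below it. The strong colours are in the MSC replicate 3 and 4 columns, with weaker ones for Cfd, Retn and Scd1 on NP replicate 1 and MSC replicate 2, and the fat lists hold many genes near 0.

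Markers of the urothelium, the lining of the renal pelvis, moved with the fat genes on MSC replicates 3 and 4. Of 6 probes, 5 had these arrays above all others (3.41% of all probes did). Among the 5 was Krt5, above background on 1 array only, whose rank carries no information. The list mean stood 0.91 and 0.53 above the NP median. The summed list ran from a mean log2 intensity of 9.07 to 9.77 on the NP arrays and from 8.75 to 10.50 on the MSC arrays. Upk3a, a uroplakin of that lining, gave 10.34, 9.72, 10.54, 10.54 and 9.17 on NP replicates 1 to 5 and 8.57, 8.77, 11.65 and 11.06 on MSC replicates 1 to 4. MSC replicate 2, which was raised for Cfd and Retn, was low for Upk3a, and the list height there was -0.74. The part of the pelvis in the fat gene values was not tested.

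The other marker lists stood less high on these arrays than the urothelium list. The height on MSC replicates 3 and 4 was -0.06 and -0.05 for the 12 skeletal muscle probes, of which 6 were above background on no array. It was 0.02 and 0.01 for the 12 adrenal probes, of which 7 were above background on no array, among them those of Cyp11b1, Cyp11b2, Mc2r and Dbh. Cyp11a1, of steroid synthesis, was above background on 7 of 9 arrays and highest on MSC replicate 3, at 8.86 against an NP median of 8.34, and 1 of the 2 Star probes was above background on 1 array. The mesothelium list stood at 0.18 and 0.23 against at most 0.16 in NP, with Upk3b, Bnc1 and Lrrn4 above background on no array and Msln at 10.30 and 11.31 against 9.55 to 10.09 in NP. The endothelium list stood at 0.20 and 0.27 against -0.33 to 0.15 in NP, and the leukocyte list at 0.33 and 0.15 against -0.21 to 0.21. The stromal list stood at 0.45 and 0.37 against -0.33 to 0.37, led by Col1a1 with 12.83 and 13.31 against an NP median of 11.64, although MSC replicate 1 also gave 12.83. The kidney list of 10 probes stood at 0.05 and 0.06, where both probes of the podocyte gene Nphs1 were lowest on MSC replicate 4. The part of these tissues in the fat gene values was not tested.

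**Figure D4:**
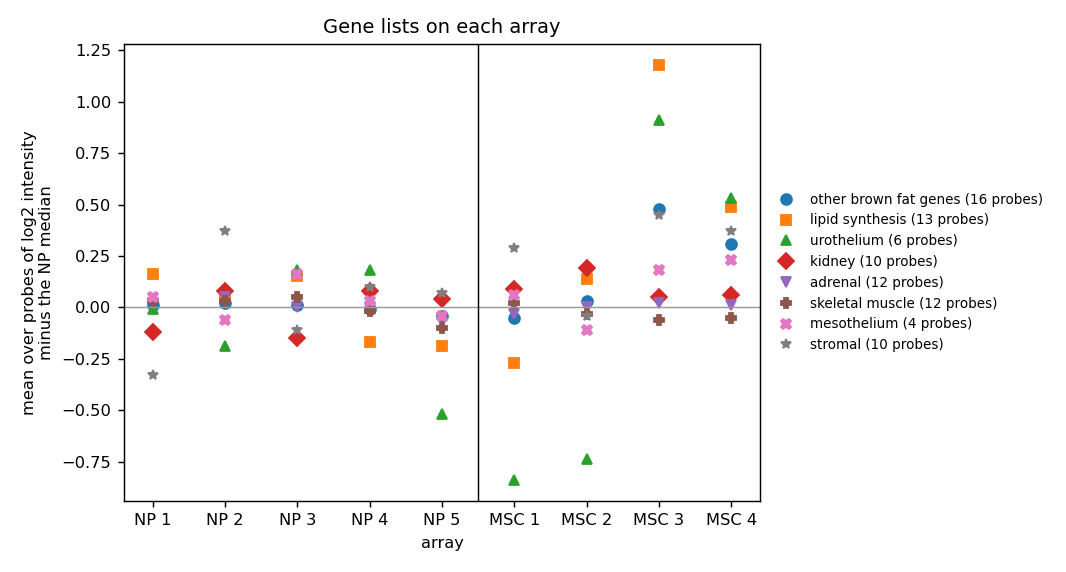
Mean over the probes of each gene list of the log2 intensity minus the probe's NP median (vertical axis) on each array (horizontal axis). On MSC replicates 3 and 4 the lipid synthesis (1.18 and 0.49), urothelium (0.91 and 0.53), brown fat (0.48 and 0.31) and stromal (0.45 and 0.37) lists stand highest of the 8 drawn, while the adrenal and skeletal muscle lists lie near 0 on all 9 arrays.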

How the data were processed

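RNA of 9 rat kidneys (5 NP, 4 MSC) had been labelled with Cy3 and hybridized to Agilent SurePrint G3 Rat GE 8x60K arrays of 1 colour. The intensity of each spot was deposited by the authors as made by Agilent Feature Extraction 10.7.3.1, as pixel means and as a background-subtracted processed signal. The deposited table of log2 values had been normalized by the authors (cyclic loess), and 0 columns with a value per sample were left unused. Groups came from the treatment field of the labels.

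Here the pixel means were log2 transformed without background subtraction, spots flagged as outliers were left out, cyclic loess was applied over the arrays and spots of a probe were averaged (R 4.3.3, limma 3.58.1, data.table in version 1.17.8). With the deposited log2 values, array by array, Pearson's r ran from 0.999867 to 0.999974. All gene probes were kept, since the authors' filter, read literally, removes nearly none. MSC was compared with NP by limma, with an FDR over 30364 probes. The steps were tested on simulated data. Each kidney is 1 array, so p-values measure the spread between these samples, and the small number of arrays limits the precision.

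The 10 genes, the other gene lists and the marker lists were chosen with earlier results of these data known. Named are all 10 members, up to 4 leading genes of each other fat list by their mean height on MSC replicates 3 and 4, and the 10 genes most like the members, Adipoq and Ucp1. A further kidney marker and a gene among those most like Ucp1 are not reported here. Markers and others beyond this rule were named after their values were seen. Of the 10 genes, 9 had an accession that RefSeq still lists, while Plin1 keeps the name of the array files. Promoters were listed for 8 of 10 (not for Fabp4 and Lpl). Alternatives took normexp background correction, the processed signal at the 75th percentile, filters on dim probes, other blocks and variance models, each array left out in turn, and the arrays without MSC replicates 3 and 4.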

Additional observations from a re-analysis of the deposited data

Results flagged for a closer look

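Among 22 groups of 4 or 5 arrays that could be tested, 1 had a sample far from the others, where chance gives about 1 in 20 (1.1 groups). The Cidea probe A_43_P22556 gave 12.33 on NP replicate 1 and at most 11.73 on the other NP arrays, a gap that was 0.742 of the whole range of the 5 arrays. The other Cidea probe was also highest among the NP arrays on that replicate, at 14.36 against at most 13.90. Adipoq, Cfd and Retn were likewise highest of the NP arrays there, at 11.67, 11.81 and 10.46, while Ucp1, Fabp4 and Lpl were not.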

How the results depend on the processing

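The number of members called was 0 in each of the 21 alternatives, and so was that of the other fat genes. Of 226 differences under alternatives, 221 kept their direction and 5 reversed, all without MSC replicates 3 and 4 (chosen after seeing the data): Ucp1 to -1.02, the Cidea probe A_64_P156333 to -0.07, Lep to 0.00, Plin1 to -0.02 and Lpl to -0.08. The adjusted p in limma was 0.299 or more for all 226. Fabp4 came to 0.00 there. Single arrays also moved the differences by over 1.5 times. Without MSC replicate 3 they were 0.55 for Ucp1, 1.08 for Retn, 1.26 for Cfd, 0.92 for Adipoq, 0.67 for Fabp4 and 0.35 and 0.19 for the Cidea probes A_43_P22556 and A_64_P156333. Without MSC replicate 1 they were 2.67, 2.73 and 3.15 for Ucp1, Retn and Cfd and 0.66 for A_64_P156333, and Ucp1 was 1.02 without MSC replicate 4. Lpl ran from 0.04 without MSC replicate 4 to 0.27 without MSC replicate 1, with 0.08 and 0.24 without NP replicates 1 and 2. On the processed signal Retn was 3.06.

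On the processed signal at the 75th percentile, the median height of the members was 0.62, 2.85 and 1.71 on MSC replicates 2, 3 and 4, against 0.33, 2.14 and 1.40. Ucp1 minus Retn was there 0.61, -5.60, 0.02 and -0.85 on MSC replicates 1 to 4, against -0.13, -1.90, 1.27 and 0.47, and with normexp background correction it was -2.86 on MSC replicate 2. The processed signal also took the correlations with Adipoq of Cidea A_64_P156333 and Cfd to 0.75 and 0.83 (exact permutation adjusted p = 0.106 for each). Dim probes, such as Ucp1 and Retn on several arrays, limit these gaps. The cause was not tested.

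With a replicate block the differences were 1.41 for Ucp1, 1.45 for Retn and 1.68 for Cfd, and 0 members were called. The numbers pair no kidneys by the labels, and arrays of the same number deviated together with r = 0.18, 0.28, -0.31 and 0.03, so that they share only a number.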
